A study of Mus musculus with 2 samples.

Results

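The respiratory chain and the citric acid cycle were followed here through 36 nuclear genes that encode subunits of respiratory complexes I to IV, cytochrome c, the enzymes of the cycle and the pyruvate dehydrogenase complex that feeds it. The genes were listed by name from these pathways, and a probe was taken as a member when its transcript accession belonged to a listed gene. In all, 35 of the 36 genes had at least 1 probe, out of 18430 named genes with a probe on the array. Fh1, encoding fumarase, had none. The 35 genes were read by 49 probes, and every one of these probes was well above background on both arrays. The list and its division into complexes were drawn up with earlier results of these arrays known.

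The series compared CD4 T cells from the spleen of female C57BL/6J mice with the genotype Menin KO (1 array) and Menin WT (1 array), and its title places a Menin-Bach2 axis in T cell senescence and cytokine balance. Menin, the product of Men1, works in chromatin complexes with MLL histone methyltransferases. All cells had been stimulated through the T cell receptor beta chain (antibody at 3 µg/ml) and CD28 (1 µg/ml) for 2 days and held in IL-2 (2.5 ng/ml) for 3 more days, in both genotypes alike. The labels state neither the allele nor the cell type in which the gene was deleted, nor whether animals were pooled, and they give no age. With 1 array in each group no difference could be tested, and none below has a p-value.

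Pyruvate from glycolysis enters mitochondria and is turned into acetyl-CoA by pyruvate dehydrogenase. The citric acid cycle oxidises the acetyl group and loads electrons on NADH and succinate, which complexes I and II pass to the quinone pool, complex III to cytochrome c and complex IV to oxygen. T cells increase their mitochondrial mass after activation, and memory T cells are known for their reliance on respiration. Most subunits are encoded in the nucleus, and the transcription factors NRF1, GABP and the oestrogen-related receptors are known to act on many of these genes.

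Because these 3 regulators are the textbook link between the members, their core letters were looked for in RefSeq promoters of build GRCm38.p6, each 300 bases long (250 before and 50 after an annotated transcript start, on the gene's own strand). A promoter was found for 29 of the 36 genes, with 34 starts in all. The NRF1 core CGCATGCG, which is its own reverse complement, stood in 1.87% of all 32851 promoters and in 4 of the 34, belonging to Cycs, Ogdh and Uqcrc1. Promoter windows were counted and not distinct sites, here and over all promoters. The Ogdh windows with this core overlap and hold it at the same genomic site. The GABP core CCGGAAGT, read on either strand, stood in 3.89% of all promoters and in 2 of the 34, those of Dlst and Ndufs3. The half-site AAGGTCA of oestrogen-related receptors, read on either strand, stood in 4.72% of all and in 2 of the 34, those of Ogdh and Sdhd. No core overlapped another in the promoters printed. These matches describe letters only, and absence of a match says only that the letters were not in the window. Shown here are 2 promoters that hold the NRF1 core, in capitals, and the promoter of Idh2, the member with the largest difference between the arrays, where none of the 3 cores was found.
Cycs, chr6:50566520-50566819, minus strand: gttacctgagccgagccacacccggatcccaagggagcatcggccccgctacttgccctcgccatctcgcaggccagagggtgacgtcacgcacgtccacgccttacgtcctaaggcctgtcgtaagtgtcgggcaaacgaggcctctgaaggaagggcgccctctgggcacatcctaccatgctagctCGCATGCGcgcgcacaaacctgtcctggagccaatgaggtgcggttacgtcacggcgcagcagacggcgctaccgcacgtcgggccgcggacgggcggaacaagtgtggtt
Uqcrc1, chr9:108936398-108936697, plus strand: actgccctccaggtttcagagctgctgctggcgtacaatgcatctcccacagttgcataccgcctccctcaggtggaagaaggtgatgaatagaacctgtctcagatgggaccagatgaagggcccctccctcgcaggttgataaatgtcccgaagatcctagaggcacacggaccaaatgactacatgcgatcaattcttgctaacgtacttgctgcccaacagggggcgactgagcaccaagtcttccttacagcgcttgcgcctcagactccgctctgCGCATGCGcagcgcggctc
Idh2, chr7:80115301-80115600, minus strand: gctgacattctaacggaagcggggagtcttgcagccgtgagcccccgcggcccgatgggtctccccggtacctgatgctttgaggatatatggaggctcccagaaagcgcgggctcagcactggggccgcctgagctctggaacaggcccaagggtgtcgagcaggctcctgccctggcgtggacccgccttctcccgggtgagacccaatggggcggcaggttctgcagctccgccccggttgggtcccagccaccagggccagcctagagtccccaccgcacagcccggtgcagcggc

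The core began 61 bases before the annotated start in Cycs and 31 bases after it in Uqcrc1. The values of these genes follow with their complexes.

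Values are processed signals in arbitrary scanner units, compared between the arrays for the same probe or the same set of probes. The log2 difference is Menin KO minus Menin WT after each array was divided by the 75th percentile of its signals (650.3 for KO and 644 for WT). Where a gene had several probes, the brightest is given and other probes are given for many genes. Over 69 bright probes printed at least 5 times on each array, the spots of a probe scattered around its own log2 difference with an SD of 0.038 (pooled over probes). The scanner software's own error estimate was larger, 0.20 on the log2 scale for the difference of every member. Neither covers mice, cultures, RNA preparations or labelling, which were not replicated.

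The members were nearly level between the genotypes. None of the 35 was at least 2-fold higher or lower in KO, against 8.86% of the 12475 named genes measured on both arrays that were at least 2-fold higher and 4.51% that were at least 2-fold lower. At a limit of 1.5-fold no member was higher and 1, Idh2, was lower, against 14.9% and 12.2% of all these genes. The members are bright, and bright genes differed less. Among the 6374 named genes at least as bright on both arrays as the dimmest member, 2.97% were at least 2-fold higher, 2.57% at least 2-fold lower, 7.45% at least 1.5-fold higher and 8.97% at least 1.5-fold lower. These shares are the background for 1 lower and 0 higher of 35 members, with no test of the difference, and the comparison with bright genes was added after the data were seen.

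The median log2 difference of the members was 0.08 (range -0.63 to 0.25), beside -0.03 for all named genes and -0.04 for the bright ones. Their interquartile range was 0.23, beside 0.59 for all genes and 0.46 for the bright ones. Higher values in KO were seen for 23 members and lower ones for 12. Among the 12475 named genes 5875 were higher and 6600 lower, and among the 6374 bright ones 2895 and 3479. The members' split depends on scaling. With the arrays centred on their medians it was 18 to 17, after loess 26 to 9, and after normexp background correction as given 33 to 2. Beyond 3 times the spot SD lay 20 members, and beyond 2 times the scanner's error estimate only Idh2. The first limit is small, and most named genes also lay past it. The median size of the log2 difference, without its sign, was 0.14 for the members, 0.30 for all named genes and 0.23 for the bright ones. The share of all genes past the second limit was not counted.

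**Figure D1:**
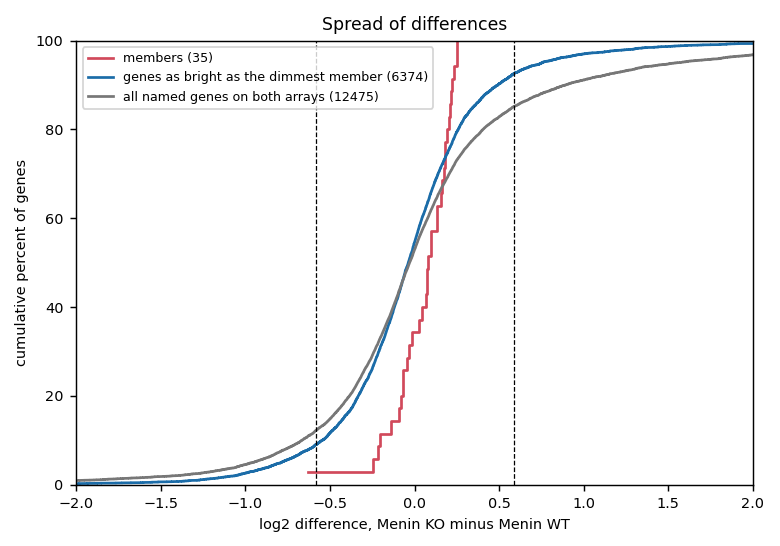
Cumulative percent of genes (vertical axis) against the log2 difference, Menin KO minus Menin WT (horizontal axis), for the 35 members, for 6374 genes at least as bright as the dimmest member and for all 12475 named genes; dashed lines mark 1.5-fold. The members' curve climbs within a narrow range, with an interquartile range of 0.23 against 0.46 and 0.59, and 1 member lies past a dashed line.

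**Figure D2:**
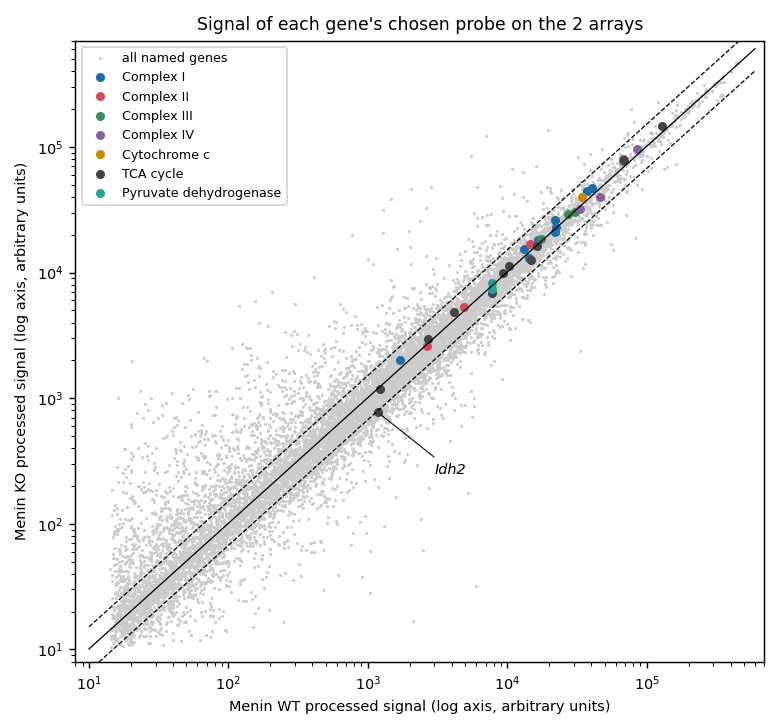
Processed signal of each gene's chosen probe on the Menin KO array (vertical, log axis) and the Menin WT array (horizontal, log axis), with named genes in grey and members coloured by complex; the solid line marks equal scaled signal and the dashed lines 1.5-fold. All members except Idh2 lie between the dashed lines.

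Complex I, the NADH dehydrogenase that opens the chain, had 7 of its 9 listed genes higher in KO and 2 lower, with a median log2 difference of 0.19. With median centring 6 were higher and 3 lower. Among its catalytic core subunits, Ndufv1, which carries the flavin that takes electrons from NADH, had a signal of 26104 in KO and 22159 in WT (log2 difference 0.22). The core subunit Ndufs3 read 15383 in KO and 13108 in WT (0.22). For Ndufs1, the largest iron-sulphur subunit, the signal was instead lower, 13058 in KO and 14267 in WT (-0.14). Core subunits of the same arm of the complex thus stood on both sides of 0.

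The accessory subunits of complex I, which surround and stabilise the core, varied in the same narrow band. Ndufa1, a small subunit of the membrane arm, had 44830.2 in KO and 37344 in WT (log2 difference 0.25), and its other probe gave 0.33. Ndufb5, also of the membrane arm, had 2024 in KO and 1689 in WT (0.25), and Ndufb8, a further subunit there, had 47108 in KO and 40897 in WT (0.19). Ndufa9, an accessory subunit of the peripheral arm, was closest to equal with 23115 in KO and 22225 in WT (0.04). Ndufa2, of the same arm, was slightly lower with 20859 in KO and 21875 in WT (-0.08). Ndufa4, named as a complex I subunit and since assigned to complex IV, had 18122 in KO and 16762 in WT (0.10).

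A further 28 listed nuclear subunits of complex I, all measured, did not share that tilt. Among them 12 were higher and 16 lower in KO, with a median of -0.07, none of them by 1.5-fold. Ndufa5, an accessory subunit, had the lowest difference of the 37 genes in both lists, with 18704 in KO and 24493 in WT (-0.40). Over these 37 genes, Ndufa4 among them, 19 were higher and 18 lower, and the median was 0.007. The median of 0.19 thus described the 9 listed genes and not the wider set.

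Complex II, succinate dehydrogenase, is both an enzyme of the citric acid cycle and an entry to the chain, and its 4 subunits had a median log2 difference of 0.06 (-0.015 with median centring). Sdha, the flavoprotein that oxidises succinate, had a signal of 2598 in KO and 2651 in WT (-0.04), and its other probe gave -0.10. Sdhb, the iron-sulphur subunit, had 16558 in KO and 16146 in WT (0.02). The membrane anchors Sdhc and Sdhd, which bind quinone, read slightly higher. Sdhc had 5295 in KO and 4899 in WT (0.10), and Sdhd, whose promoter holds the oestrogen-related receptor half-site, had 16731 in KO and 14639 in WT (0.18).

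Complex III, the cytochrome bc1 complex, was represented by 3 genes with a median of 0.07 (-0.005 with median centring). Uqcrc1 had a signal of 29296 in KO and 27481 in WT (log2 difference 0.08), and its other probe gave 0.12. For Uqcrc2 the arrays gave 30285 in KO and 30653 in WT (-0.03). Uqcrfs1, the Rieske iron-sulphur protein that hands electrons towards cytochrome c, had 18395 in KO and 17350.3 in WT (0.07). Of the complex's other 6 measured subunits, 4 were higher and 2 lower, and Uqcrq, a small accessory subunit, was the farthest, with 102337 in KO and 74043 in WT (0.45).

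Complex IV, cytochrome c oxidase, had 3 of 5 listed genes higher in KO and 2 lower, with a median of 0.16 (0.08 with median centring). Cox4i1, the widely expressed isoform of a regulatory subunit, had a signal of 95441 in KO and 84680 in WT (log2 difference 0.16). Cox5a and Cox5b, subunits that sit on the matrix side, were also on the higher side. The first had 77290.0 in KO and 67895 in WT (0.17), and Cox5b had 80044 in KO and 67558 in WT (0.23). Cox6c, a membrane-spanning subunit, was the lowest of the 5 with 40204 in KO and 46329 in WT (-0.22), and Cox7a2, the common isoform of another small membrane subunit, had 32014 in KO and 33240.5 in WT (-0.07, and -0.11 by its second probe). The other 6 subunits had a median of 0.08 and none was 1.5-fold apart.

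Cycs, encoding the mobile electron carrier cytochrome c, which also triggers apoptosis when released, was higher in KO by all of its 3 probes. The brightest had a signal of 39753 in KO and 34202 in WT (log2 difference 0.20). The dimmer probes gave larger differences, 3437 in KO and 2490 in WT (0.45), and 5442 in KO and 3966 in WT (0.44). The gap of 0.25 between its probes was the widest of the 13 members that had several, whose median gap was 0.08. Processed copies of Cycs lie in the mouse genome, and which of them each probe can read was not tested.

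**Figure D3:**
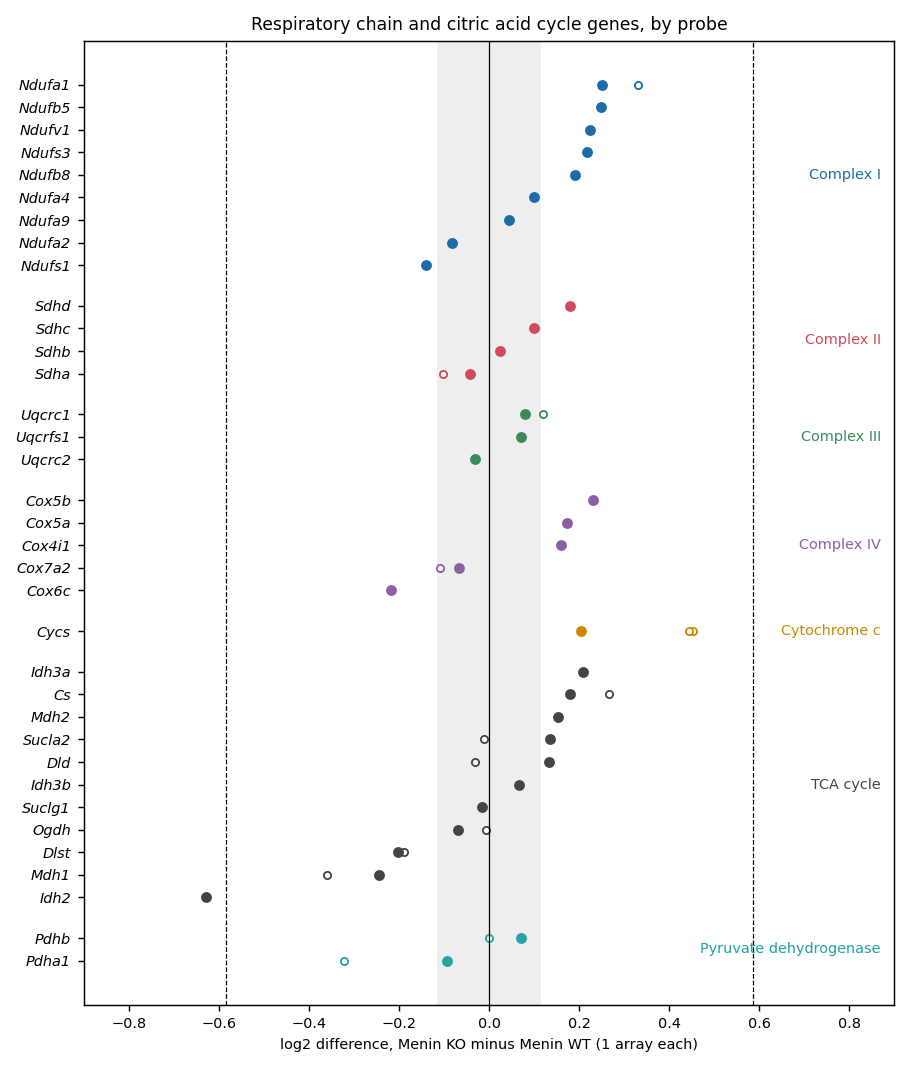
Log2 difference, Menin KO minus Menin WT (horizontal axis), for each member (rows, grouped and coloured by complex); filled circles are the chosen probes and open circles the gene's other probes, the grey band spans 3 times the spot SD of bright probes on either side of 0 and the dashed lines mark 1.5-fold. Idh2 (-0.63) is the only point past a dashed line, and the open circles of Cycs (0.45 and 0.44) lie farthest to the right.

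The 11 measured enzymes of the citric acid cycle counted here, without succinate dehydrogenase, divided into 6 higher and 5 lower in KO, with a median of 0.07 (-0.011 with median centring) and the widest range of any group. Cs, citrate synthase, which commits acetyl-CoA to the cycle, had a signal of 78530.3 in KO and 68756 in WT (log2 difference 0.18), and its other probe gave 0.27. Mdh2, the mitochondrial malate dehydrogenase that closes the cycle, had 145672 in KO and 129751 in WT (0.15). Both ends of the cycle thus read slightly higher in KO.

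The isocitrate dehydrogenases stood on both sides of 0. Idh2, the mitochondrial enzyme that uses NADP and makes NADPH, had a signal of 771 in KO and 1181 in WT, 1.55-fold lower in KO (log2 difference -0.63). A single probe covered the gene, and its difference was -0.54 after loess on level and -0.51 after normexp background correction as given, both inside the 1.5-fold limit, but -0.61 after normexp with 6 outlying WT backgrounds replaced. The NAD-dependent enzyme, which runs the cycle itself, was on the other side in the main scaling. Its catalytic subunit Idh3a had 4810.4 in KO and 4127 in WT (0.21). Its subunit Idh3b had 9911 in KO and 9387 in WT (0.07, and -0.011 with median centring). The third subunit, Idh3g, from the list of other cycle genes, had 27913 in KO and 24126 in WT (0.20). The values of Idh3b and Idh3g did not exceed the scanner's error estimate. Cytosolic Idh1, which also uses NADP, was dim with 92.1 in KO and 70.6 in WT (0.37), on the opposite side of 0 from Idh2.

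Of the 2-oxoglutarate dehydrogenase complex, Ogdh, its first enzyme, had a signal of 1179 in KO and 1225 in WT (log2 difference -0.07). Dlst, its succinyl-transferring core, was lower by both probes, with 6817 in KO and 7776 in WT for the brighter (-0.20, and -0.19 by the other). Dld, the dihydrolipoyl dehydrogenase that this complex shares with pyruvate dehydrogenase, had 2968 in KO and 2682 in WT (0.13), while its dim second probe gave -0.03. None of these 3 values exceeded the scanner's error estimate. In succinyl-CoA ligase, Suclg1, the shared alpha subunit, was equal with 16364 in KO and 16402 in WT (-0.016). Sucla2, the ADP-forming beta subunit, had 11350 in KO and 10245 in WT (0.13), and -0.010 by its dimmer probe.

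Mdh1, the cytosolic malate dehydrogenase of the malate-aspartate shuttle, was lower in KO by both of its probes. The brighter had a signal of 12563 in KO and 14745 in WT (log2 difference -0.24) and the other gave -0.36. It and Idh2 were the only 2 members that stayed below 0 under all 13 alternatives of processing, whereas 16 stayed above 0 and 17 took both signs. In pyruvate dehydrogenase, the E1 alpha subunit Pdha1 had 7414 in KO and 7836 in WT (-0.09), with -0.32 by a dimmer probe. The E1 beta subunit Pdhb had 8209 in KO and 7742 in WT (0.07), and 0.00099 by its other probe. The median of this pair was -0.011.

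Besides the members, 174 further genes of the pathway were listed in 15 lists drawn up in the same way, and 145 of them were measured on both arrays. Their median was 0.03. Of the 145, 6 were at least 1.5-fold higher in KO, 2 of these at least 2-fold, and 3 at least 1.5-fold lower. As for the members, this is beside 14.9% and 12.2% of all genes at 1.5-fold. Among genes as bright as the dimmest member the shares were 7.45% higher and 8.97% lower. At least 2-fold higher were 8.86% of all genes and 2.97% of the bright ones. Not all of the 145 genes are as bright as that member. None of the 13 mitochondrially encoded subunits had a named probe, so the arrays say nothing about the mitochondrial genome here. The 16 genes listed for complex V, the ATP synthase, count its inhibitor Atpif1. They had a median of 0.02 and stayed within 1.5-fold. The lowest was Atp5g2, a subunit c gene, with 43452 in KO and 49298 in WT (-0.20). The highest was Atp5g1, another subunit c gene of the same protein, with 15887 in KO and 12187 in WT (0.37).

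The largest differences among these genes were those of Me1 and Gpd2. Me1, the cytosolic malic enzyme that makes NADPH from malate, had a signal of 669 in KO and 43.3 in WT, 15.3-fold higher in KO (log2 difference 3.94). Its size rests on a dim WT signal, and after normexp background correction it was 1.77 as given and 2.60 with outlying WT backgrounds replaced. Gpd2, the mitochondrial glycerol-3-phosphate dehydrogenase, which feeds electrons straight to the quinone pool, had 3919 in KO and 1428 in WT, 2.72-fold higher in KO (1.44, and 1.34 by its second probe). Got1, the cytosolic aspartate aminotransferase of the malate-aspartate shuttle, had 10231 in KO and 6115 in WT (0.73), in the same shuttle in which Mdh1 was lower. Other genes of that shuttle on the same list as Got1 also had positive differences: Got2 (0.19), Slc25a11 (0.03), Slc25a12 (0.25) and Slc25a13 (0.55). The value of Slc25a11 was inside the spot SD of bright probes. Of all 11 genes on that list 10 were higher in KO, so this direction was not particular to the shuttle. Pcx, pyruvate carboxylase, which refills oxaloacetate, had 5530.5 in KO and 9525 in WT, 1.74-fold lower in KO (-0.80, and -0.53, inside the 1.5-fold limit, after normexp as given).

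Pdk1, a kinase that inactivates pyruvate dehydrogenase, had 2258 in KO and 3346 in WT (log2 difference -0.58), and Pdp1, a phosphatase that reactivates it, had 266 in KO and 177 in WT (0.58, and 0.44 by its second probe). Both lay just inside the 1.5-fold limit. Pdk3, another such kinase and the only other measured gene of that list, had 2443 in KO and 2331 in WT (0.05, and 0.38 by its second probe). Of isoforms typical of other tissues, Cox7a1, known from heart and skeletal muscle, had 3810 in KO and 2349 in WT (0.68), and Cox6b2, known from testis, had 1046 in KO and 657 in WT (0.66, and 0.58, just inside the limit, with median centring). Ttc19, a factor of complex III assembly, had 259 in KO and 147 in WT (0.81), and its difference after normexp background correction was 0.16 as given and 0.62 with outlying WT backgrounds replaced. Pdss1, which starts the side chain of coenzyme Q, had 1486 in KO and 2214 in WT (-0.59), just past the 1.5-fold limit. It lay inside that limit by its second probe (-0.58) and after quantile scaling (-0.57), in the authors' deposited values (-0.56), after loess (-0.51) and after normexp with outlying backgrounds replaced (-0.48) or as given (-0.33).

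**Figure D4:**
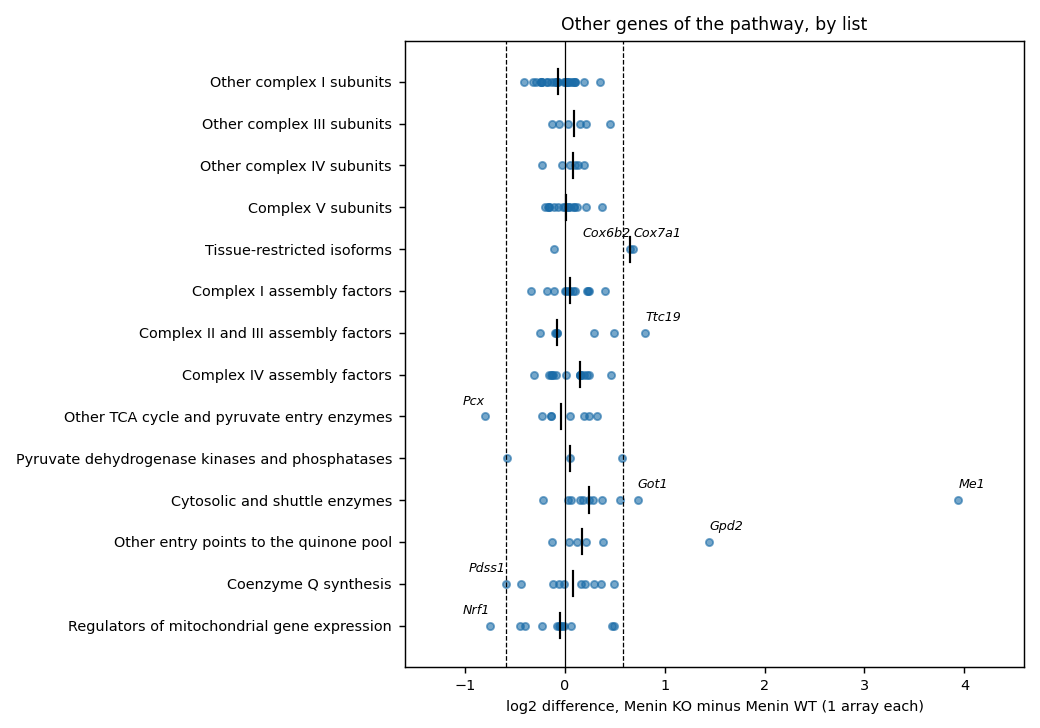
Log2 difference, Menin KO minus Menin WT (horizontal axis), of the 145 other pathway genes measured on both arrays, by list (rows); black bars mark list medians, dashed lines 1.5-fold, and genes past that limit are named. The genes on the subunit lists of complexes I, III, IV and V cluster around 0, while Me1 (3.94) and Gpd2 (1.44) stand apart.

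Among 12 measured regulators of mitochondrial gene expression 3 were higher and 9 lower in KO, with a median of -0.05. This split counts values near 0, such as Yy1 (-0.007), Pprc1 (-0.03) and Polrmt (0.07), and is given for the main scaling only. Of GABP, Gabpa had 932 in KO and 960 in WT (-0.06), but 0.31 and 0.44 by its dimmer probes. Gabpb1 had 358 in KO and 468 in WT (-0.40, and -0.20 by its second probe). Nrf1 itself had a signal of 353 in KO and 588 in WT, 1.68-fold lower in KO (log2 difference -0.75), and its second probe gave -1.04. The members whose promoters hold the NRF1 core had 0.20 (Cycs), 0.08 (Uqcrc1) and -0.07 (Ogdh). Regulation of these genes by Nrf1 was not tested. Tfam, which packages and transcribes mitochondrial DNA, had 7778 in KO and 10498 in WT (-0.45), and -0.76, past the 1.5-fold limit, by a dim second probe, whereas Tfb2m, its partner in transcription, had 848 in KO and 599 in WT (0.49). Esrra, the oestrogen-related receptor alpha, had 3947 in KO and 2817 in WT (0.47). Myc, a broad driver of growth genes, had 8672 in KO and 8894 in WT (-0.05). Ppargc1a, the coactivator PGC-1 alpha, was below the limit of detection on both arrays (not well above background).

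As checks on the arrays, Men1 had a signal of 459 in KO and 1081 in WT (log2 difference -1.25), by 1 probe whose place relative to the deletion is not known here. All 6 genes listed as CD4 T cell markers were well above background on both arrays, with a summed signal of 231864 in KO and 254041 in WT. Thy1 gave the largest part, 119433 in KO and 132209 in WT. Among the 6 only Cd4 separates CD4 from CD8 T cells, so the sum reads T cells in general. Cd3g was higher in KO (0.37) and the other 5 lower. Cd4 itself had 279 in KO and 443 in WT (log2 difference -0.68). Each marker list of another cell type had a higher summed signal in KO. Cd8a, the only CD8 T cell marker with a probe of 2 listed, had 3213 in KO and 312 in WT. The 3 natural killer markers summed to 2681 in KO and 1337 in WT. The mast cell and basophil markers Cpa3 and Mcpt8 summed to 529 in KO and 41.9 in WT. The 4 macrophage markers summed to 351 in KO and 94.8 in WT, of which Cd14 was 256 in KO (log2 difference 2.86), while Csf1r had 21.0 in KO and 27.3 in WT, and the 3 B cell markers summed to 438 in KO and 235 in WT. Ms4a2, a defining mast cell and basophil gene, stayed near background on both arrays and is not in their sum. Lyz2, of macrophages, was well above background on the WT array only. The part of these cells in the values above was not tested, and in bulk RNA fewer cells of a type and less RNA per cell cannot be told apart.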

How the data were processed

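Total RNA of 1 Menin KO and 1 Menin WT culture was hybridised to 1-colour (Cy3) Agilent mouse arrays after amplification of 500 ng, per the labels' protocols. The intensity values are the processed signals the authors deposited, made with Agilent Feature Extraction 10.7.3.1 per the file headers (10.7 per the submitters' processing notes), background-subtracted and not scaled between arrays. The deposited series table is in log2 units, equal within 0.01 to log2 of that signal minus a constant for 99.7% of probes on either array.

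Non-control spots without outlier flags were used (103 flagged on KO, 115 on WT, none saturated), 63.5% of KO and 59.5% of WT spots being well above background. Signals were divided by the array's 75th percentile, logged, averaged over a probe's spots and named by accession through a RefSeq table of GRCm38.p6. The array annotation is on another build, so no coordinates are given from it. The promoter coordinates printed are those of GRCm38.p6. A gene took its brightest probe well above background on at least 1 array; a gene above it on 1 array only is a bound. Limits of 2-fold and 1.5-fold were used, with no test. Named genes were the 36 members, Men1, other pathway genes at least 1.5-fold apart and, chosen after their values were seen, further examples within the lists (among them the extremes of a complex, genes just inside the limit and known regulators). The members and lists were chosen with earlier results of these data known. Some genes of the lists are not reported here by name. The procedure was tested on simulated data. Alternatives comprised scaling, background correction with limma 3.58.1 (normexp, offset 50, on median signals), filters, probe choice and flags. Python 3.11.15 was used. The number of arrays limits the precision.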

Additional observations from a re-analysis of the deposited data

How the results depend on the processing

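No paired analysis was possible because each genotype had 1 array. None of the 35 measured genes was 2-fold apart under any of the 13 alternatives. Several of these could not change that count. The filters on dim probes left every member as it was, since all member probes were bright. The deposited values and the kept outlier flags shifted all members together, by 0.0236 and -0.0032. The count at least 1.5-fold apart was 1 (Idh2), and 0 after loess and after normexp as given. Median centring, which lowers every difference by 0.077 and is built to do so, gave a median of 0.0028 for all members, 0.1145 for complex I, -0.0153 for complex II, -0.0052 for complex III, 0.0831 for complex IV, -0.0111 for the cycle enzymes and -0.0872 for pyruvate dehydrogenase. Normexp as given, in which 6 WT spots had a local background over 200, gave 0.3433 for all members, 0.3896, 0.3323, 0.3140 and 0.3987 for complexes I to IV, 0.3175 for the cycle enzymes and 0.2048 for pyruvate dehydrogenase, and 16 instead of 9 other pathway genes at least 1.5-fold apart. With those backgrounds replaced the medians were 0.1264 for all members, 0.1091 for complex II and 0.1439 for the cycle enzymes. Choice of probe moved the cycle enzymes to -0.0103 with the smallest difference, and pyruvate dehydrogenase to -0.0856 with the mean over probes and -0.1252 with the largest difference. Otherwise these medians moved by less than the spot SD of bright probes, and the causes of the shifts were not tested beyond the construction of each setting. Single members moved by more than that SD in 35 of 35 cases with median centring and with normexp as given, in 12 with backgrounds replaced, in 7 with loess, in 7 with the mean over probes, in 8 and 4 with the largest and smallest difference, and in 0 of 35 under the other 6 alternatives. Of those 6, only quantile normalization did more than leave the members unchanged or shift them together. Of the 35 members, 17 took both signs over the 13 alternatives, or 11 without normexp as given, so the sign of small differences is not settled.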
